A study of Rattus norvegicus with 17 samples.

Results

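The response of the meibomian gland (MG) to ultraviolet B (UVB) was examined in P1.hMR rats, transgenic Sprague-Dawley rats that carry the human mineralocorticoid receptor (MR). Of the 17 female rats sequenced, the 10 P1.hMR rats were compared, 5 Control P1.hMR rats without UVB and 5 UVB P1.hMR rats whose eyelids were irradiated for 5 days. Both groups carry the transgene, driven by the proximal P1 promoter of the human NR3C2 gene in all tissues that express MR, and all rats were aged 10 to 12 weeks. By the study's methods, the upper eyelids were shaved and irradiated daily while the cornea and the body were covered, the dissected gland was sequenced, and the controls were kept under the same conditions without irradiation. The remaining 4 Control WT and 3 UVB WT rats served to set the response of the transgenic gland beside that of the wild-type gland. The genes examined were the 12921 of 17251 with at least 1 TPM in at least 3 of the 10 P1.hMR rats, and the other 4330 genes were not tested. TPM is a gene's share of the transcripts in a library, corrected for length, so levels can be compared between genes.

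The MG is a sebaceous gland of the eyelid whose acinar cells, the meibocytes, fill with wax esters, cholesterol esters and other lipids and burst to release meibum, the oil layer of the tear film. Its duct is lined by a stratified epithelium, and it lies beside eyelash follicles, conjunctiva, skin and the orbicularis muscle. UVB is absorbed mainly by the epidermis, where it damages DNA and is known to evoke inflammation, epidermal thickening and altered cornification. MR is a nuclear receptor that binds aldosterone and glucocorticoids, and the enzyme 11β-hydroxysteroid dehydrogenase type 2 (Hsd11b2) inactivates glucocorticoids in many MR-expressing cells.

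Markers of the labelled tissue were present in every rat. All 14 meibocyte markers examined were tested, and their summed level was between 48913 and 55019 TPM in the controls and between 42825 and 50944 TPM in the UVB rats. Scd, a stearoyl-CoA desaturase, was the most abundant gene listed in each of the 10 rats, with 23994 to 28891 TPM. Transcripts of neighbouring tissue were also present, with 3307 to 6551 TPM summed over 30 skeletal muscle genes and 309 to 935 TPM over 14 hair shaft genes in the 10 rats, ranges that overlapped between the groups. Summed melanocyte, adipocyte, goblet cell and lacrimal genes overlapped too. The sums did not overlap for the inner root sheath, at 853 to 1363 TPM in the controls and 464 to 754 TPM in the UVB rats. Nerve and Schwann cell sums, at 247 to 322 and 206 to 222 TPM, did not overlap either. Between 12493 and 12737 genes reached 1 TPM in each P1.hMR rat. TPM keeps no read counts, so the depth is unknown and the precision of each value rests on the spread between rats.

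The 2 groups separated along the first principal component of the log2(TPM + 1) values, which carried 53.3% of the variance, with the Control P1.hMR rats between -23.2 and -17.3 and the UVB P1.hMR rats between 18.2 and 27.2. UVB P1.hMR rat 4 stood apart on the third component (7.2% of the variance), at 19.4 against 8.3 or less in the other rats. Differentially expressed genes (DEGs) were those with a log2 fold change of 0.5 or more in either direction and a limma p, adjusted over all genes tested after Benjamini and Hochberg, under 0.05. Fold changes are UVB minus control on the log2(TPM + 1) scale, which understates the change of low genes, and carry their standard error, while means carry their SD over the 5 rats. In total, 1415 genes were DEGs, 11% of the genes tested. The counts of DEGs in the gene lists below are to be read against this share. Of these, 665 genes (5.15%) were higher and 750 genes (5.8%) were lower after UVB. Values of the 5 UVB rats and the 5 control rats did not overlap for 1151 of the DEGs, 564 higher and 587 lower, while 27.4% of all genes tested had groups without overlap. A further 3792 genes passed the adjusted p and missed the fold change threshold. Without UVB P1.hMR rat 4, genes called higher numbered 620 and genes called lower 765.

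**Figure D1:**
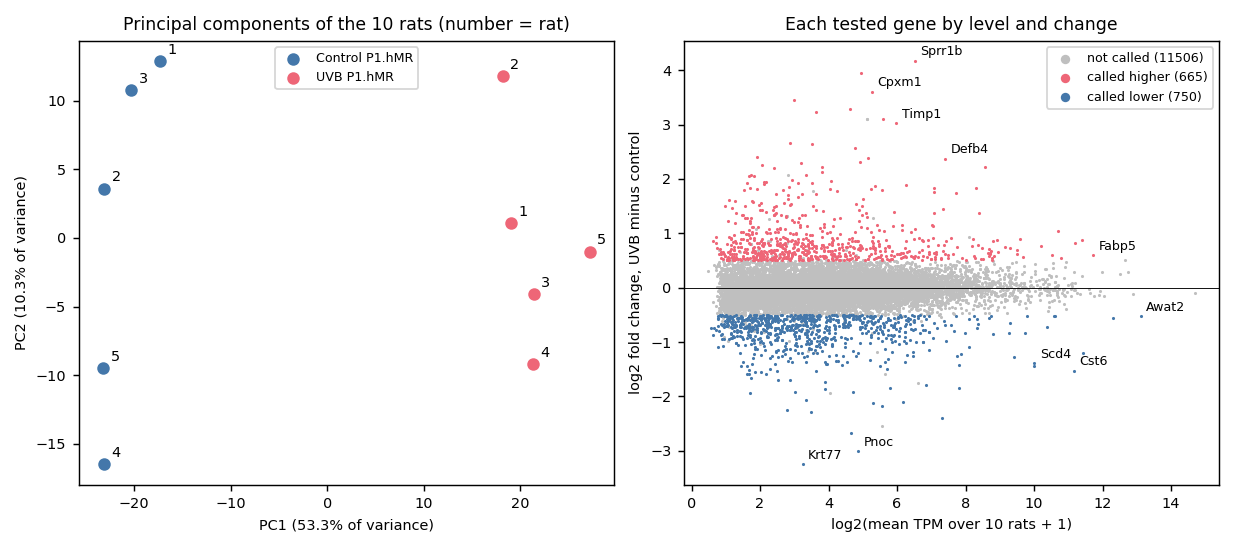
Left, the first and second principal components (scores, with percent of variance) of the 10 P1.hMR rats, each point a rat. Right, the log2 fold change (UVB minus control) of each of the 12921 genes against its mean level in TPM on a log axis, with the 665 genes called higher and the 750 called lower in colour. The rats part by treatment along the first component, and DEGs occur at all levels of expression.

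Changes were mostly moderate. The median log2 fold change was 0.72 among the higher and -0.72 among the lower DEGs, against -0.02 over all genes tested. A change of at least 1 on the log2 scale was reached by 156 higher and 146 lower DEGs, and a change of at least 2 by 25 and 10. The DEGs were called from these same rats, so the side on which they lie in each UVB rat follows largely from the selection. The values by rat are given as a description of how evenly the rats contributed. Against the control mean, the median over the 665 higher DEGs lay at 0.68, 0.62, 0.73, 0.82 and 0.83 in UVB P1.hMR rats 1 to 5, and the median over the 750 lower DEGs at -0.72, -0.72, -0.70, -0.66 and -0.85. At least 661 of the higher DEGs were above the control mean, and at least 747 of the lower DEGs below it, in each of the 5 rats.

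As a share of the table, the higher DEGs together went from 3.77% to 6.55% of the listed TPM and the lower DEGs from 7.41% to 4.24%. Few genes made up much of this shift, since the 6 genes with the largest gain in mean TPM carried 29.3% of the summed gain of the higher DEGs and the 6 with the largest loss 44.1% of the summed loss of the lower DEGs. Fabp5, a fatty acid binding protein of keratinocytes and sebocytes, lay at 3448, 2816, 2241, 2484 and 2623 TPM in the controls and at 3897, 3905, 4133, 4178 and 4258 TPM in the UVB rats (log2 fold change 0.60 ± 0.10). The other large gains were those of the cornified envelope precursor Sprr1a, the stefin Stfa3, annexin A1 (Anxa1), and 2 genes listed only by identifier, ENSRNOG00000065108 and LOC681458. On the side of the losses, Awat2, the wax synthase of the meibocyte, was at 10602, 11012, 10838, 9428 and 10393 TPM in the controls and at 7728, 8048, 6967, 7164 and 6495 TPM in the UVB rats (log2 fold change -0.52 ± 0.07). Every UVB rat was below every control rat for Awat2, but the change lay close to the threshold, and without UVB P1.hMR rat 5 it was -0.48 and no longer a DEG. Cst6 (cystatin M/E, a protease inhibitor of cornification), Dbi (an acyl-CoA binding protein), Apoe, the desaturase-like Fads2l1 and the desaturase Scd4 lost most after Awat2. Cst6 fell from 3408 ± 476 TPM (SD, n = 5) to 1169 ± 52.5 TPM, Dbi from 3849 ± 457 to 1660.0 ± 118 TPM, and Scd4 from 1485 ± 140.0 to 571 ± 87.6 TPM. Apoe fell from 5985 ± 610.0 to 4089 ± 279 TPM, and the log2 fold change of Apoe went from -0.55 to -0.50, just short of the threshold, without Control P1.hMR rat 2.

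The largest rise was that of Sprr1b, a small proline-rich protein that is cross-linked into the cornified envelope, the protein shell of the terminally differentiated keratinocyte. Sprr1b lay at 7.96, 9.53, 9.19, 6.78 and 7.8 TPM in the controls and at 108, 122, 177, 188 and 275 TPM in the UVB rats (log2 fold change 4.17 ± 0.21, adjusted p = 7.58e-07 from limma). The lowest UVB rat was more than 10 times above the highest control rat. Cpxm1, a secreted protein of the carboxypeptidase family, lay at 4.43, 4.81, 4.25, 4.98 and 5.5 TPM and at 94.5, 56.1, 61.3, 75.4 and 63.1 TPM (log2 fold change 3.60 ± 0.12, adjusted p = 5.61e-08 from limma). Prg4, which encodes the lubricant lubricin, and the carbonic anhydrase Car2 rose from 1.33 ± 0.152 to 21.3 ± 5.58 TPM and from 9.08 ± 2.31 to 85.7 ± 18.7 TPM. Timp1, an inhibitor of matrix metalloproteinases, rose from 12.6 ± 2.1 to 111 ± 26.8 TPM. Cd163, the haemoglobin scavenger receptor of macrophages, went from 1.27, 1.86, 0.73, 0.76 and 0.44 TPM to 12.2, 10.4, 9.47, 17.4 and 8.92 TPM. The largest rises and falls named here were chosen among DEGs whose groups did not overlap, so the lack of overlap follows from the choice.

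Among the largest rises, 3 β-defensins, small antimicrobial peptides of epithelia, stood together. Defb4 went from 71.8, 39.8, 78.7, 40.3 and 48.6 TPM in the controls to 326, 241, 263, 270.0 and 311 TPM after UVB (log2 fold change 2.37 ± 0.18). Defb14 rose from 11.1 ± 5.92 to 57.3 ± 9.68 TPM, and Defb3 from 4.79 ± 4.41 to 43.1 ± 21.7 TPM. The controls were uneven for Defb3, with 8.63, 0, 5.77, 0.35 and 9.18 TPM, and the UVB rats ranged up to 62.6 TPM. Stfa2l1, a stefin-like protease inhibitor, was listed at 0 in 4 of the 5 controls and lay at 4.43, 7.71, 24.8, 17 and 15.2 TPM in the UVB rats. The lipid hydrolase Pnpla5 rose from 7.66 ± 5.11 to 45.3 ± 15.2 TPM and Lbhd2 from 0.192 ± 0.191 to 5.39 ± 1.39 TPM. Small proline-rich proteins, defensins, stefins, kallikreins, keratins, S100 proteins and serpins come from multigene families with similar sequences, among which the authors' quantification may have divided reads, so the values of single members are uncertain.

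The largest fall was that of Krt77, a keratin of the suprabasal epidermis and sweat ducts. Krt77 lay at 8.98, 19.97, 11.5, 30.6 and 10.5 TPM in the controls and at 0.92, 0.65, 0.93, 0.59 and 0.27 TPM in the UVB rats (log2 fold change -3.25 ± 0.28, adjusted p = 1.43e-05 from limma). Pnoc, the precursor of the neuropeptide nociceptin, lay at 35, 76.4, 42.4, 42.5 and 54.9 TPM and at 3.5, 4.39, 3.71, 12.5 and 4.53 TPM, with UVB P1.hMR rat 4 highest among the UVB rats and below every control. Fcgbp, a mucin-associated protein of secretory epithelia, fell from 41.8 ± 17.5 to 6.23 ± 4.48 TPM. Wfdc21 and Slpil3, of the whey acidic protein family of protease inhibitors, fell from 263 ± 61.3 to 51.2 ± 17.2 TPM and from 10.6 ± 4.74 to 1.36 ± 0.691 TPM. The late cornified envelope gene Lce1m fell from 17.5 ± 4.09 to 3.12 ± 1.83 TPM, and S100a1 from 117 ± 9.86 to 26.9 ± 6.56 TPM. The amino acid transporter Slc38a4, the receptor phosphatase Ptprh, the epidermal lipoxygenase Alox12e and the cytochromes Cyp4a8 and Cyp2b21 were the other large falls. Their log2 fold changes ran from -2.17 for Slc38a4 to -1.85 for Cyp2b21.

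**Figure D2:**
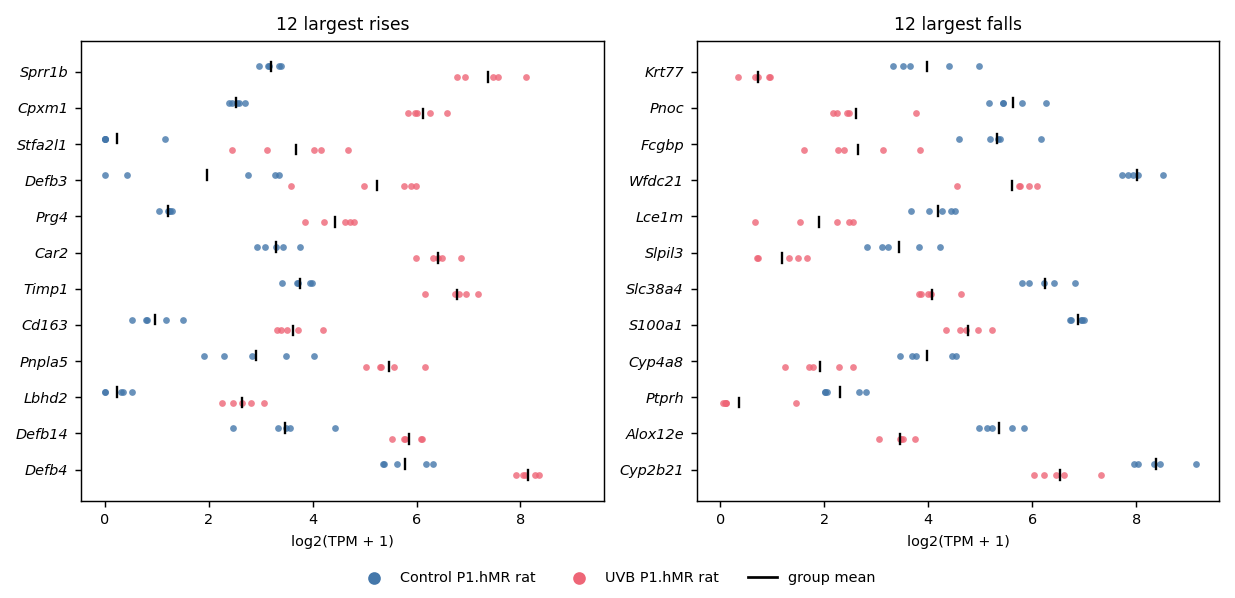
Expression on the log2(TPM + 1) scale of the 12 DEGs with the largest rise (left) and the 12 with the largest fall (right) among named genes whose groups do not overlap. Each point is a rat and each bar a group mean, and every UVB P1.hMR rat lies on the same side of every Control P1.hMR rat in each row.

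Genes of the cornified envelope changed often and in both directions. Of the 30 tested members of this list, 12 were higher and 7 lower after UVB, 63.3% against the 11% of all genes tested, and their median log2 fold change was -0.09. Higher members included the small proline-rich proteins, the cornified cell protein Cnfn, the cross-linking transglutaminases and enzymes and carriers of the barrier lipids (Alox12b, Abca12, Cers3). Sprr3 went from 146, 134, 187, 113 and 92.3 TPM in the controls to 523, 481, 596, 771 and 759.9 TPM after UVB (log2 fold change 2.22 ± 0.19). Cnfn lay at 168, 111, 156, 105 and 149 TPM and at 423, 367, 499.9, 584 and 596 TPM. Tgm3 rose from 17.7 ± 3.45 to 47.9 ± 12 TPM and Tgm1 from 29.6 ± 3.18 to 50.4 ± 9.82 TPM. Lower members included the late cornified envelope genes and involucrin. Ivl fell from 13.5 ± 2.84 to 5.1 ± 1.28 TPM and Lce1f from 26.5 ± 4.42 to 10.5 ± 4.62 TPM. Loricrin (Lor), at 183 ± 42.4 TPM in the controls and 127 ± 35.6 TPM after UVB, was not a DEG.

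Many of these genes lie side by side in the epidermal differentiation complex on chromosome 2, with runs of neighbours that changed in the same direction. With the genes placed by RefSeq's GRCr8 annotation, Sprr2d, Sprr1b, Sprr3 and Sprr1a formed an unbroken run of 4 higher DEGs, with log2 fold changes from 1.05 to 4.17, and Ivl, Lce6a and Lce1f a run of 3 lower DEGs, with -1.34 to -1.25. Over the 29 tested genes from S100a1 to S100a10, 9 were higher and 9 lower, with a median log2 fold change of -0.12. The S100 proteins, calcium-binding proteins of which several are alarmins, were likewise divided. Of 13 tested S100 genes, 4 were higher and 3 lower. S100a7a rose from 3.3 ± 0.235 to 13.5 ± 3.68 TPM and S100a6 from 534 ± 33.4 to 1013 ± 192 TPM, while S100a1 fell.

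Small proline-rich genes are known targets of AP-1 factors, dimers of Fos and Jun proteins, and a pair of their promoters is shown because Sprr1b had the largest rise. The AP-1 motif searched was TGANTCA on both strands, given in capitals, in windows of 250 bases before to 50 bases after the start of the gene in RefSeq's GRCr8. Sprr1b lies on the minus strand and its window is chr2:180706306-180706605. Sprr1a, also on the minus strand, has the window chr2:180752576-180752875.
Sprr1b: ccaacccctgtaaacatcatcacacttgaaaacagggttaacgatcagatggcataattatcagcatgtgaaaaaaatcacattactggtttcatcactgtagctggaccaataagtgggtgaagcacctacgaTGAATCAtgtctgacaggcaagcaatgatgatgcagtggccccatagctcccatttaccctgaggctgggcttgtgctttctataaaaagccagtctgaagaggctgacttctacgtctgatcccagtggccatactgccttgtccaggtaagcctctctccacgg
Sprr1a: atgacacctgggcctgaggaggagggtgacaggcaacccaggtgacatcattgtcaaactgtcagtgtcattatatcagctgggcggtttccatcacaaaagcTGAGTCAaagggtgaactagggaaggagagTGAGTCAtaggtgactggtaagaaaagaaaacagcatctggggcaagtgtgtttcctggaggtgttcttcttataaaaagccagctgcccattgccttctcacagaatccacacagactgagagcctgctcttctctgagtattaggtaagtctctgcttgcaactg
The match in Sprr1b began 116 bases before the start, and the matches in Sprr1a began 147 and 117 bases before it. This motif occurred in 10.9% of the 485 promoters of higher DEGs, in 8.18% of the 538 promoters of lower DEGs and in 5.38% of all 9961 promoters of genes tested. A match is a description of the letters, and no binding was measured.

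Kallikreins are secreted serine proteases that cleave the bonds between corneocytes, and membrane serine proteases and Spink inhibitors act in the same step of desquamation. Of 25 tested members of this group, 12 were higher and 2 lower, with a median log2 fold change of 0.28. Klk14 lay at 73.1, 48, 74, 42.1 and 56 TPM in the controls and at 208, 192, 180.2, 208 and 258 TPM in the UVB rats (log2 fold change 1.84 ± 0.15). Klk9 rose from 16 ± 3.81 to 58 ± 12.1 TPM, Klk12 from 7.76 ± 2.58 to 28.2 ± 5.36 TPM and Klk13 from 98.2 ± 21.8 to 327 ± 51.4 TPM. Klk5, at the end of the same cluster on chromosome 1, went the other way, from 35.5 ± 3.17 to 15.5 ± 3.67 TPM. On chromosome 14 the 5 neighbouring membrane proteases Tmprss11b, Tmprss11f, Tmprss11g, Tmprss11a and Tmprss11d were all higher, with log2 fold changes from 0.51 to 1.82, among them Tmprss11a, from 6.42 ± 2.07 to 24.5 ± 2.55 TPM. Among 20 serpins, which inhibit serine proteases, 6 were higher and 4 lower. Serpinb2 rose from 14.7 ± 2.01 to 47.7 ± 5.32 TPM, and Serpina1, which encodes α1-antitrypsin, fell from 85.3 ± 19.5 to 23 ± 5.17 TPM.

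**Figure D3:**
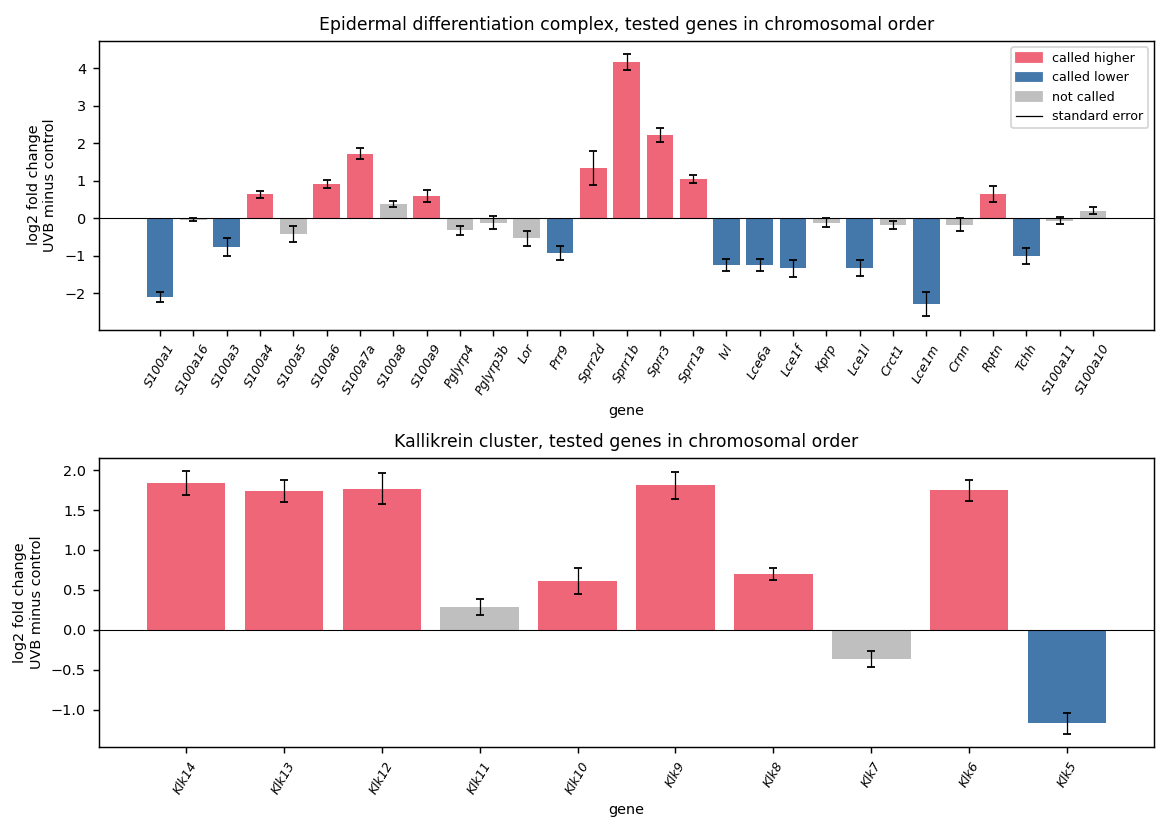
Log2 fold change (UVB minus control, ± standard error) of the tested genes of the epidermal differentiation complex (top, S100a1 to S100a10) and of the kallikrein cluster (bottom, Klk14 to Klk5), in chromosomal order. Small proline-rich genes and most kallikreins were called higher, and the late cornified envelope genes and Klk5 lower.

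Among the keratins of the epidermis and mucosa, the DEGs were mostly lower. Of 18 tested members, 1 was higher and 5 lower, 33.3% against the 11% of all genes tested, with a median of -0.08. Krt14, the type I keratin of basal cells, was higher at 5297 ± 333 against 7589 ± 1466 TPM with a log2 fold change of 0.50 ± 0.12 that missed the threshold before rounding, and its basal partner Krt5 was at 3620.0 ± 149 and 3278 ± 490.0 TPM. Of the markers of keratinocytes and duct, 1 of 11 was a DEG (9.09%, against the 11% of all genes tested). This was the desmosomal cadherin Dsg3, with 98.6, 85.8, 101, 85.5 and 90.02 TPM in the controls and 131, 134, 146, 167 and 156 TPM in the UVB rats. Krt18 and Krt8, the keratin pair of simple epithelia, were lower. Krt18 fell from 3.84 ± 1.55 to 1.04 ± 0.871 TPM and Krt8 from 13.5 ± 5.66 to 6.14 ± 2.98 TPM, each with overlapping groups. The call of Krt8 depended on single rats, although the log2 fold change of Krt8, -1.03, stayed between -1.02 and -0.83, and its adjusted p from limma rose above 0.05 without Control P1.hMR rat 2, 4 or 5 or without UVB P1.hMR rat 1, 2 or 5, and in the fit of all 17 rats.

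Genes of the hair follicle fell together. The inner root sheath, the layer that moulds the growing hair, was represented by 10 tested genes, all 10 of which were lower, with a median log2 fold change of -0.94. Krt72 lay at 15.3, 22.9, 11.1, 15.3 and 17.7 TPM in the controls and at 9.73, 4.55, 9.01, 4.83 and 5.19 TPM in the UVB rats (log2 fold change -1.21 ± 0.22). Krt27 fell from 144 ± 31.4 to 71.8 ± 18.1 TPM, Krt26 from 9.89 ± 2.9 to 4.22 ± 1.14 TPM and trichohyalin (Tchh) from 101 ± 25.9 to 49.7 ± 14.3 TPM. Summed over the list, the controls held 853 to 1363 TPM and the UVB rats 464 to 754 TPM, without overlap. Of 14 hair shaft genes, 7 were lower and none higher, all 14 had a negative log2 fold change, and the summed levels overlapped, at 357 to 935 TPM and 309 to 473 TPM. This count depended on single rats and lay between 4 (without Control P1.hMR rat 2, Control P1.hMR rat 5, UVB P1.hMR rat 2 or UVB P1.hMR rat 5) and 11 (without Control P1.hMR rat 3). Among 30 regulators of the hair matrix, 8 were lower and none higher, including Wnt3, from 6.5 ± 0.842 to 2.99 ± 0.278 TPM, Wnt11, from 6.81 ± 1.05 to 3.8 ± 0.445 TPM, and the homeobox gene Msx2, from 9.65 ± 1.67 to 5.6 ± 0.753 TPM. Shaving is described for the irradiated eyelids, and whether control eyelids were shaved is not given in the sources used here. UVB and shaving therefore cannot be told apart for these genes or for any other DEG of this comparison. In bulk tissue, fewer cells of a type and less RNA per cell cannot be told apart either.

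The enzymes of meibum synthesis did not move as a group. Of the 14 meibocyte markers, 1 was higher and 2 lower, with a median log2 fold change of -0.02. Pparg, the nuclear receptor that drives meibocyte differentiation, was at 103 ± 6.94 TPM in the controls and 112 ± 6.81 TPM after UVB (log2 fold change 0.12 ± 0.06, adjusted p = 0.11 from limma). Values within the spread between rats were also found for the fatty alcohol reductase Far2, at 1431 ± 146 and 1404 ± 144 TPM, and for the elongase Elovl4, at 2173 ± 220.0 and 2218 ± 259 TPM. Plin2, which coats lipid droplets, was at 1544 ± 90.2 and 1203 ± 81.2 TPM, a log2 fold change of -0.36 ± 0.06 under the threshold.

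Single enzymes of chain elongation and desaturation did change. All 6 elongases tested were above 0, and 3 were DEGs, each higher. Elovl3, an elongase of saturated long chains, lay at 1024, 854, 816, 783 and 872 TPM in the controls and at 1539.6, 1604, 1545, 1289 and 1409 TPM in the UVB rats (log2 fold change 0.77 ± 0.08). Elovl5 rose from 239 ± 24.8 to 410.0 ± 14.3 TPM and Elovl7 from 19.7 ± 1.13 to 36.5 ± 5.03 TPM. Among 21 genes of fatty acid synthesis and desaturation, 1 was higher and 1 lower, 9.52% against the 11% of all genes tested. The polyunsaturated fatty acid desaturase Fads2 rose from 9.37 ± 0.527 to 17 ± 1.7 TPM, and Scd4 fell. Fasn, the fatty acid synthase, was at 379 ± 34.1 and 425 ± 28.4 TPM and was not a DEG. Fads2l1 was outside the list and fell from 1501 ± 166 to 553 ± 72.6 TPM.

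The acyltransferases that form wax esters and triglycerides went both ways, with 2 of 15 higher and 2 lower. Dgat2l6 lay at 2.77, 2.35, 0.9, 5.01 and 4.28 TPM in the controls and 16.5, 14.5, 19.99, 11.9 and 12.6 TPM in the UVB rats, and Dgat1 rose from 16.1 ± 1.82 to 27.7 ± 1.67 TPM. Dgat2 fell, with 353, 352, 368, 362 and 356 TPM in the controls and 223, 267, 251, 269 and 240.5 TPM in the UVB rats, and the log2 fold change of Dgat2 went from -0.52 to -0.48 without UVB P1.hMR rat 1. In the sterol pathway, 3 of 26 genes were higher and 1 lower, and 19 of the 26 were above 0. Squalene synthase (Fdft1) lay at 330.4, 311, 289, 334 and 369 TPM in the controls and at 524, 463, 526, 571 and 528 TPM in the UVB rats, while the cholesterol exporter Abca1 fell from 44.8 ± 2.62 to 30.1 ± 3.13 TPM. Lipoprotein lipase (Lpl) rose from 14.9 ± 1.65 to 42.2 ± 7.53 TPM. None of 30 peroxisomal genes and none of 62 nuclear genes of oxidative phosphorylation was a DEG by limma, with medians of 0.02 and 0.01. An unadjusted p under 0.05 was reached by 14 and 23 members, and by 6349 of all 12921 genes tested.

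**Figure D4:**
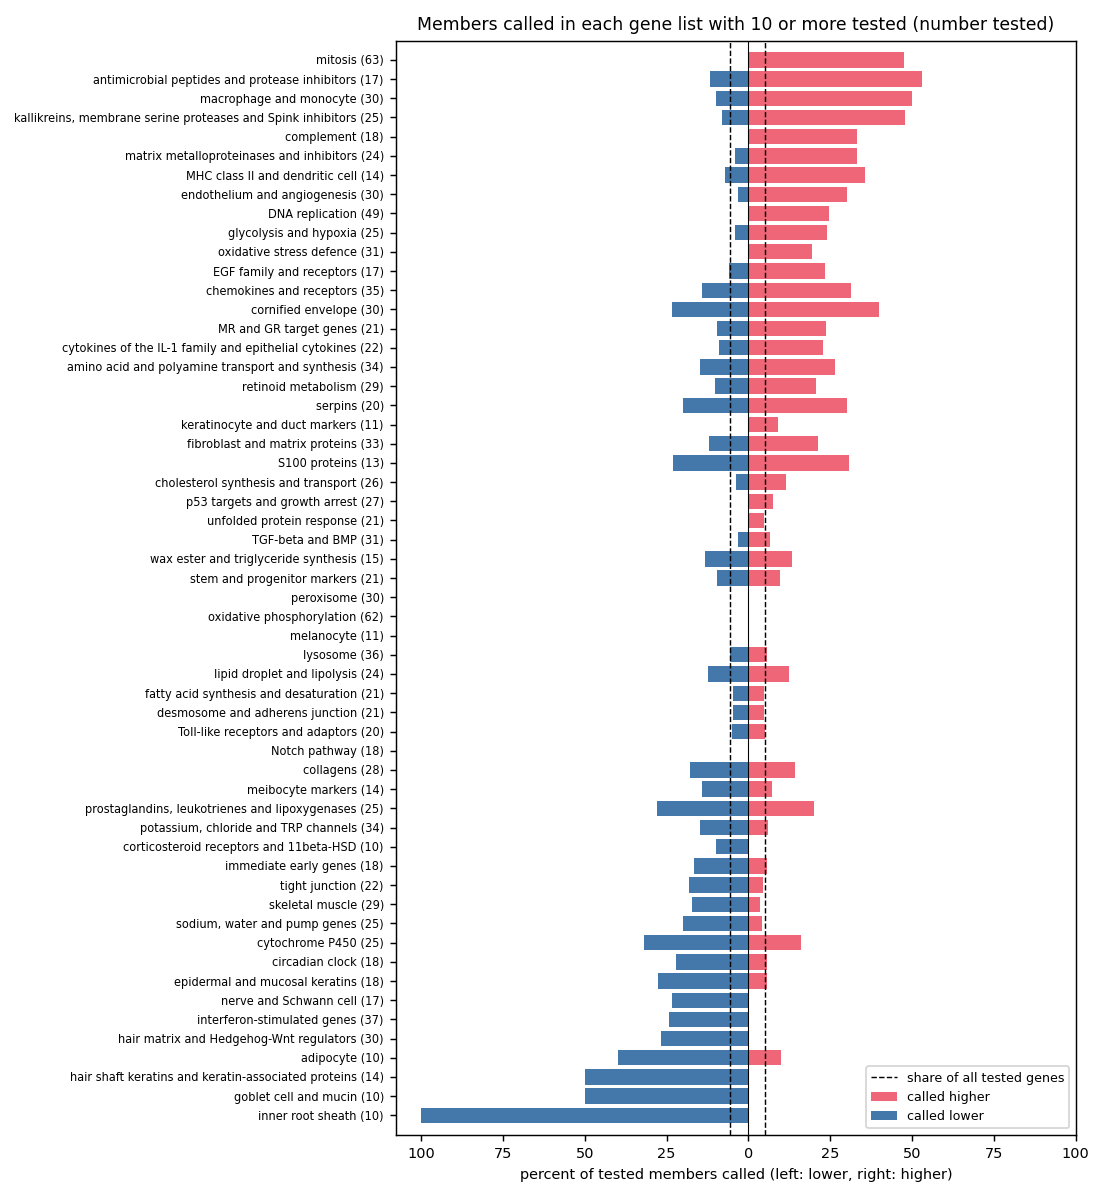
Percent of the tested members of each gene list that were called higher or lower after UVB, for lists with at least 10 tested members. Dashed lines mark the percent over all genes tested, 5.15% higher and 5.8% lower. The inner root sheath list lies at 100% lower, and the mitosis list holds 30 higher members of 63 and no lower one.

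Cell cycle genes were higher. All 63 mitosis genes tested had a log2 fold change above 0, and 30 of them (47.6%) were DEGs, none of them lower, with a median log2 fold change of 0.49. The kinase Aurka, which builds the spindle, lay at 12.9, 14.2, 11.7, 13.4 and 12.8 TPM in the controls and at 25.3, 22.2, 23.9, 21.8 and 24.3 TPM in the UVB rats (log2 fold change 0.81 ± 0.06). Incenp, a partner of Aurora B, rose from 11.2 ± 1.35 to 20.9 ± 2.87 TPM, the checkpoint protein Mad2l1 from 5.06 ± 0.672 to 9.69 ± 1.89 TPM and the kinesin Kif22 from 6.75 ± 1.08 to 13 ± 3.05 TPM. Mki67, the gene of the proliferation marker Ki-67, was at 17.8 ± 2.22 and 20.6 ± 3.71 TPM, a log2 fold change of 0.19 ± 0.12 that was not called. All 49 DNA replication genes were also above 0, with 12 DEGs, none lower. Rrm2, a subunit of ribonucleotide reductase, lay at 13.4, 11.2, 15, 15.1 and 12 TPM in the controls and 34.3, 32.4, 43.6, 48.2 and 45.7 TPM after UVB (log2 fold change 1.54 ± 0.12). Cyclin E1 (Ccne1) rose from 4.59 ± 0.827 to 10.1 ± 1.08 TPM and the helicase subunit Mcm5 from 10.6 ± 0.724 to 19.7 ± 4.07 TPM.

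Mitotic genes share a promoter element, the cell cycle homology region or CHR, through which they are known to be repressed outside the cycle. The letters TTTGAA, searched on both strands, occurred in 37 of the 54 mitosis promoters (68.5%), against 11.6% of all 9961 promoters and 18.6% of those of higher DEGs. CCAAT, the NF-Y motif, occurred in 74.1% of the mitosis promoters and in 37.6% of all. The window of Kif22 (minus strand, chr1:191080829-191081128 in GRCr8) is given as an example, with the match, on the reverse strand, in capitals.
Kif22: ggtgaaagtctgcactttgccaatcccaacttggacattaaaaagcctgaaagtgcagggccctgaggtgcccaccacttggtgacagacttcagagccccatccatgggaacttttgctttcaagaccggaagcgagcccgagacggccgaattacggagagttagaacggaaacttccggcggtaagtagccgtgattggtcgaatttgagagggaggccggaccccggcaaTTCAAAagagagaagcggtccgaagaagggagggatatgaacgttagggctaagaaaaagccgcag
The match began 16 bases before the start.

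Stress pathways differed in their share of DEGs. Of 27 targets of the p53 pathway, 2 were higher, Ccng1 from 43.9 ± 3.31 to 67 ± 7.86 TPM and Pmaip1 from 1.19 ± 0.292 to 2.16 ± 0.413 TPM, and none was lower, a share of 7.41%. The log2 fold change of Pmaip1 was 0.53 and fell short of the threshold, at 0.48 or 0.49, without Control P1.hMR rat 1, UVB P1.hMR rat 2 or UVB P1.hMR rat 3. Cdkn1a, which encodes the cell cycle inhibitor p21, was at 179 ± 14.5 and 231 ± 22.6 TPM without overlap, at a log2 fold change of 0.36 ± 0.07. Of 31 genes of the defence against oxidative stress, 6 were higher and none lower, a share of 19.4%. Metallothionein Mt2A, which binds zinc, lay at 183, 203, 177, 167 and 186 TPM in the controls and at 379.5, 351, 638, 455 and 619.8 TPM in the UVB rats (log2 fold change 1.37 ± 0.15). Glutathione peroxidase Gpx2 rose from 53.8 ± 5.78 to 113 ± 24.3 TPM, thioredoxin (Txn1) from 474 ± 36.3 to 786 ± 119 TPM and the cystine transporter Slc7a11 from 2.04 ± 0.555 to 5.08 ± 0.911 TPM. The 18 immediate early genes held 1 higher and 3 lower DEGs, a share of 22.2%, and genes of AP-1 and related factors went both ways. Fosl1 rose from 3.73 ± 0.438 to 7.46 ± 1.4 TPM, while Jund fell from 118 ± 19.5 to 82.1 ± 8.63 TPM, Atf3 from 12.3 ± 5.7 to 6.39 ± 1.71 TPM and Egr2 from 59.4 ± 7.19 to 36.7 ± 3.16 TPM. The log2 fold change of Jund was -0.51 and lay between -0.49 and -0.44, short of the threshold, without Control P1.hMR rat 4 or 5 or UVB P1.hMR rat 2 or 4. The log2 fold change of Atf3 was -0.77 and was no longer called without Control P1.hMR rat 2, 4 or 5 or UVB P1.hMR rat 2, 3, 4 or 5, at -0.81 to -0.57.

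Inflammatory genes changed at mostly low levels of expression. Of 35 chemokines and chemokine receptors tested, 11 were higher and 5 lower, and the 5 CXC chemokines that lie next to each other on chromosome 14, Cxcl2, Cxcl1, Cxcl3, Pf4 and Cxcl6, were all higher. Pf4 went from 7.38, 5.54, 3.71, 8.38 and 4.43 TPM in the controls to 26, 23.2, 20.8, 39.1 and 19.3 TPM after UVB (log2 fold change 1.96 ± 0.22). Cxcl6, an attractant of neutrophils, rose from 0.762 ± 0.251 to 5.98 ± 2.47 TPM and Cxcl1 from 4.61 ± 1.59 to 11.3 ± 2.3 TPM. The monocyte attractant Ccl2 lay at 2.72, 1.95, 1.79, 4.96 and 2.04 TPM and at 8.41, 12.6, 12.9, 14.9 and 14.2 TPM, the groups again without overlap. Of 22 cytokines of the IL-1 family and of epithelia, 5 were higher and 2 lower. Il36a rose from 0.234 ± 0.289 to 4.44 ± 1.9 TPM, Il36g from 1.84 ± 0.933 to 6.78 ± 1.69 TPM and Il1b from 1.96 ± 0.696 to 6.79 ± 2.76 TPM, while Il34, which keeps Langerhans cells alive, fell from 19.1 ± 2.83 to 9.64 ± 1.75 TPM. Among the Toll-like receptors and adaptors, 1 of 20 was higher, the lipopolysaccharide co-receptor Cd14, and 1 lower, Tlr2. This share of 10% was near the 11% of all genes tested.

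Leukocyte markers moved unevenly. Of 30 macrophage and monocyte genes tested, 15 were higher and 3 lower, with a median log2 fold change of 0.48, while their summed level overlapped, at 1107 to 1513 TPM in the controls and 1204 to 1482 TPM in the UVB rats. The complement component C1qb, made by tissue macrophages, lay at 19.7, 25.3, 10.2, 17.7 and 13.6 TPM in the controls and 46.2, 40.6, 38.4, 59.1 and 36.2 TPM after UVB, and the mannose receptor Mrc1 rose from 2.52 ± 0.945 to 7.78 ± 2.08 TPM. Widely used markers of the lineage, Cd68 at 37.9 ± 6.49 and 30.7 ± 4.1 TPM and Csf1r at 14.4 ± 1.68 and 13.3 ± 2.64 TPM, were not DEGs, nor was the pan-leukocyte gene Ptprc at 2.72 ± 0.357 and 2.64 ± 0.261 TPM. Nos2, the inducible nitric oxide synthase, fell from 7.5 ± 3.36 to 1.76 ± 0.174 TPM. The part of cell number in these values was not tested.

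Mast cell genes were higher in 5 of 8 tested, with a median of 0.90 and none lower, and their summed level was 32.8 to 41.6 TPM in the controls and 48.3 to 83.2 TPM in the UVB rats. Hdc, which makes histamine, lay at 0.12, 0.13, 0.24, 0.33 and 0.53 TPM in the controls and at 1.86, 2.7, 4.08, 9.16 and 6.1 TPM in the UVB rats (log2 fold change 2.05 ± 0.29). The tryptase Tpsab1 rose from 1.01 ± 0.28 to 5.08 ± 1.88 TPM and the carboxypeptidase Cpa3 from 2.05 ± 0.688 to 6.89 ± 1.9 TPM, with UVB P1.hMR rat 4 highest for each. These genes are expressed at low levels. A filter at a mean of 5 TPM left Hdc, Tpsab1 and Cpa3 untested, and no member of the list that passed it was called. Of the neutrophil list, 9 genes were tested, 3 were higher and none lower, and 13 were not tested, with no value above 2.5 TPM in any of the 10 rats. Csf3r, the receptor of granulocyte colony-stimulating factor, went from 0.17, 0.4, 0.1, 0.25 and 0.25 TPM to 1.14, 1.37, 2.55, 2.42 and 2.18 TPM. S100a9, which keratinocytes make as well, rose from 358 ± 35.4 to 554 ± 147 TPM with overlapping groups, and the log2 fold change of S100a9 went from 0.59 to 0.46 without UVB P1.hMR rat 5.

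Only 7 of 32 listed T and NK cell genes were tested, and the other 25 did not exceed 1.27 TPM. Among the 7, 2 were higher. Cd8a, the co-receptor of cytotoxic T cells, lay at 0.35, 0.42, 0.3, 0.64 and 0.39 TPM in the controls and at 3.92, 3.07, 4.32, 4.82 and 4.34 TPM in the UVB rats (log2 fold change 1.84 ± 0.11, adjusted p = 1.51e-06 from limma), and Cd2 rose from 1.5 ± 0.41 to 3.62 ± 0.86 TPM. Of 14 genes of antigen presentation and dendritic cells, 5 were higher and 1 lower. Fscn1, an actin bundler of mature dendritic cells that other cells also make, rose from 9.03 ± 1.47 to 49.4 ± 11.3 TPM and Clec10a from 7.6 ± 1.58 to 17.5 ± 3.69 TPM, while Cd207, which encodes langerin of Langerhans cells, fell from 22.1 ± 5.88 to 8.52 ± 1.26 TPM. Of 4 B and plasma cell genes tested, Ighm fell from 3.34 ± 0.742 to 1.57 ± 0.503 TPM, and 16 others of that list did not exceed 1.2 TPM.

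Complement genes were higher in 6 of 18 tested and lower in none. Serping1, the C1 inhibitor, lay at 61.5, 63, 43.6, 67.1 and 56 TPM in the controls and 124, 113, 115, 135 and 126 TPM in the UVB rats. Masp1, a protease of the lectin pathway, rose from 16.8 ± 1.2 to 32.6 ± 3.48 TPM, factor I (Cfi) from 0.55 ± 0.118 to 3 ± 0.873 TPM and C2 from 27.9 ± 4.04 to 48.1 ± 7.01 TPM. Antimicrobial peptides and protease inhibitors of epithelia had 9 higher and 2 lower members of 17, with a median of 0.82. Lcn2, which binds bacterial siderophores, was uneven, at 0.32, 2.8, 1.05, 2.7 and 0.28 TPM in the controls and 15.1, 0.35, 30.4, 29.9 and 21.2 TPM after UVB, with UVB P1.hMR rat 2 within the range of the controls.

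Interferon-stimulated genes were in part lower. Of the 37 tested, 9 were lower and none higher by limma, and the median log2 fold change was -0.23. Zbp1, a sensor of nucleic acids, lay at 10.1, 9.61, 8.99, 10.2 and 8 TPM in the controls and at 3.31, 3.4, 3.13, 4.71 and 1.92 TPM in the UVB rats (log2 fold change -1.30 ± 0.15). Oas3, which activates RNase L, fell from 2.29 ± 0.592 to 0.63 ± 0.233 TPM and Ifit2 from 17.3 ± 4.49 to 7.81 ± 3.55 TPM. Irf7, a transcription factor of the interferon response, was at 23.8 ± 2.25 and 21.3 ± 6.17 TPM and was not a DEG, and the summed level overlapped, at 641 to 864 TPM and 528 to 697 TPM. The interferon response element, searched by its name on both strands, occurred in 66.7% of the 30 promoters of this list, against 2.83% of all promoters, 1.86% of those of higher DEGs and 3.90% of those of lower DEGs. The window of Oas3 (plus strand, chr12:41439482-41439781 in GRCr8) shows the match, on the reverse strand, in capitals.
Oas3: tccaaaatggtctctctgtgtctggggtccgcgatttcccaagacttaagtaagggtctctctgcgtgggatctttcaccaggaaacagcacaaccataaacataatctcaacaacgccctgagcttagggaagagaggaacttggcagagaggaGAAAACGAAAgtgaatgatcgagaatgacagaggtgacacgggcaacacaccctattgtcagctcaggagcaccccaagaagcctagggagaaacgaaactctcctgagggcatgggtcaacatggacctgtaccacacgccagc
The match began 95 bases before the start.

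Genes of the extracellular matrix and of its remodelling changed in both directions. Among 24 matrix metalloproteinases and inhibitors, 8 were higher and 1 lower. Mmp2, a gelatinase of fibroblasts, lay at 89.2, 88.1, 92.3, 95.7 and 90.5 TPM in the controls and at 182, 167, 164, 181 and 165 TPM in the UVB rats (log2 fold change 0.91 ± 0.04, adjusted p = 3.78e-07 from limma). The collagenase Mmp13 rose from 0.54 ± 0.0797 to 3.4 ± 0.361 TPM and the aggrecanase Adamts4 from 0.568 ± 0.211 to 1.89 ± 0.248 TPM. Mmp13 is a textbook AP-1 target, and its window (plus strand, chr8:12782579-12782878 in GRCr8) held 1 match to TGANTCA, 66 bases before the start.
Mmp13: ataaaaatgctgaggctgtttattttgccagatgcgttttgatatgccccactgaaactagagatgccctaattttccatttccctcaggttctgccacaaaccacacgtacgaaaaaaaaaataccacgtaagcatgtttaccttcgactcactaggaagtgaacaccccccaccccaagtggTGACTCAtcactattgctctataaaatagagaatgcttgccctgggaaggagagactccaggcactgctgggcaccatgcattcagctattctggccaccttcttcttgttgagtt
Among 33 fibroblast and matrix proteins, 7 were higher and 4 lower. Lumican (Lum), a proteoglycan that spaces collagen fibrils, lay at 29, 31.1, 29.9, 33.7 and 36.4 TPM in the controls and 120.1, 122, 105, 137 and 118 TPM after UVB (log2 fold change 1.88 ± 0.08), decorin (Dcn) rose from 341 ± 24 to 627 ± 48 TPM, and lysyl oxidase (Lox), which cross-links collagen, from 5.82 ± 0.276 to 12.5 ± 1.19 TPM. Collagens were divided, with 4 of 28 higher and 5 lower. Col1a1 of type I collagen fell, from 499.6, 523, 582, 614 and 656 TPM in the controls to 327, 304, 319.6, 422 and 229 TPM in the UVB rats, whereas the basement membrane collagen Col4a1 rose from 26.3 ± 1.14 to 48.5 ± 4.71 TPM and Col8a1 from 1.17 ± 0.341 to 4.82 ± 0.952 TPM. Col3a1, at 481 ± 26 and 390.0 ± 67.2 TPM, was not a DEG.

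Endothelial and vascular genes were higher in 9 of 30 tested and lower in 1. The adhesion molecules that slow leukocytes on activated vessels rose, E-selectin (Sele) from 2.79, 1.94, 2.31, 4.62 and 2.21 TPM in the controls to 9.13, 6.88, 8.56, 9.6 and 14.8 TPM after UVB and P-selectin (Selp) from 2.26 ± 1 to 8.76 ± 3.85 TPM. Podoplanin (Pdpn), of lymphatic endothelium and basal keratinocytes, rose from 9.24 ± 0.276 to 24.1 ± 5.43 TPM and endoglin (Eng) from 22 ± 3.74 to 37.8 ± 6.9 TPM. Vegfa was at 38.2 ± 4.55 and 26.9 ± 2.61 TPM, a log2 fold change of -0.49 ± 0.09 under the threshold. Of 25 genes of prostaglandin, leukotriene and lipoxygenase synthesis, 5 were higher and 7 lower. Both cyclooxygenases rose, Ptgs2 from 0.04, 0.19, 0.19, 0.28 and 0.21 TPM to 1.29, 1.79, 3.19, 2.74 and 2.57 TPM and Ptgs1 from 4.14 ± 0.135 to 11 ± 2.36 TPM. Of 17 genes of the EGF family and its receptors, 4 were higher and 1 lower, with a median of -0.13 and 6 of the 17 above 0, and the summed level was lower, at 386 to 423 TPM in the controls and 351 to 377 TPM in the UVB rats. The ligands epigen (Epgn) rose from 0.988 ± 0.269 to 4.88 ± 1.74 TPM, amphiregulin (Areg) from 2.8 ± 0.403 to 6.28 ± 1.74 TPM and neuregulin 1 (Nrg1) from 1.17 ± 0.409 to 2.99 ± 0.813 TPM. Lrig1, which restrains these receptors, fell from 45 ± 4.46 to 30.6 ± 1.58 TPM, and the log2 fold change of Lrig1 went from -0.54 to -0.49 without Control P1.hMR rat 4. In the TGF-β and BMP list, 2 of 31 were higher and 1 lower (9.68%, against the 11% of all genes tested). Tgfb1 itself was at 22.9 ± 2.56 and 27.7 ± 3.47 TPM. None of 18 Notch pathway genes was a DEG by limma, while 9 of them had an unadjusted p under 0.05, as did 6349 of all 12921 genes tested.

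Some genes of secretory and simple epithelium were lower. Of 10 genes of goblet cells and mucins tested, 5 were lower and none higher, with a median of -0.60, and the summed level overlapped, at 212 to 287 TPM in the controls and 156 to 229 TPM in the UVB rats. Muc20 lay at 22.2, 20.9, 16.8, 21.9 and 27.3 TPM in the controls and 6.49, 5.35, 4.7, 8.49 and 4.58 TPM in the UVB rats, and Pigr, which carries antibodies across epithelium, fell from 6.24 ± 2.96 to 1.53 ± 1 TPM. Of 22 tight junction genes, 1 was higher and 4 lower. Claudin 17 (Cldn17) lay at 4.09, 2.75, 5.2, 4.31 and 3.36 TPM in the controls and at 19.1, 17.2, 18, 27.7 and 28.9 TPM in the UVB rats (log2 fold change 2.22 ± 0.17), and Cldn7 fell from 28.2 ± 2.18 to 14.5 ± 3.46 TPM. The progenitor markers, 21 in number, had 2 higher and 2 lower members, with Cd44 rising from 39.3 ± 2.32 to 67.8 ± 11.6 TPM and Plet1 falling from 231 ± 39.9 to 116 ± 15 TPM. None of 11 melanocyte genes was a DEG by limma, although all 11 had a negative log2 fold change and 8 an unadjusted p under 0.05. Over all genes tested, 6349 of 12921 had an unadjusted p under 0.05. Of 17 nerve and Schwann cell genes, 4 were lower and none was higher. Of 29 skeletal muscle genes, 1 was higher and 5 lower, with the fast-fibre genes Actn3, from 69.7 ± 19.2 to 27.9 ± 13.9 TPM, and Pvalb, from 79.8 ± 21 to 39.7 ± 12.1 TPM, falling, Actn2 rising from 21 ± 3.83 to 34.9 ± 4.83 TPM, and a total of 3 to 9 DEGs, at the extremes without UVB P1.hMR rat 5 and without UVB P1.hMR rat 3.

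Neither the transgene nor the receptors of corticosteroids were DEGs. NR3C2, the human transgene, lay at 6.77, 8.28, 9.25, 9.31 and 7.19 TPM in the controls and at 6.09, 8.93, 5.54, 6.76 and 5.31 TPM in the UVB rats (log2 fold change -0.29 ± 0.13, adjusted p = 0.0876 from limma), and the groups overlapped. The rat's own Nr3c2 was at 11.8, 10.7, 11, 9.42 and 9.27 TPM in the controls and at 8.54, 8.02, 6.4, 6.77 and 6.33 TPM after UVB, a log2 fold change of -0.48 ± 0.09 without overlap that stayed under the threshold. The glucocorticoid receptor Nr3c1 was at 28 ± 1.55 and 25.4 ± 2.03 TPM. Reads could have been split between the human and the rat receptor, so both values are uncertain. Hsd11b2 was the DEG of this list, with 5.75, 7.09, 4.71, 3.63 and 2.84 TPM in the controls and 1.35, 1.27, 1.7, 1.66 and 0.94 TPM in the UVB rats (log2 fold change -1.24 ± 0.18), and Hsd11b1, which regenerates active glucocorticoid, was at 1156 ± 82 and 1136 ± 90.4 TPM.

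Known targets of MR and of the glucocorticoid receptor held 5 higher and 2 lower DEGs of 21. Their log2 fold changes ran from -1.0 to 2.65, with a median of 0.08. Mt2A was among the higher DEGs and rose from 183 ± 13.2 to 489 ± 134 TPM. The kinase Sgk1, a target of both receptors, fell from 63.2 ± 9.12 to 41.4 ± 2.74 TPM, and the sodium pump subunit Atp1b1 from 147, 154, 119.7, 157 and 142 TPM to 76.5, 82, 65, 75.8 and 58.8 TPM. Fkbp5, at 27.3 ± 21.7 and 29.3 ± 9.46 TPM, and Tsc22d3, at 56.1 ± 24.7 and 59.9 ± 13.5 TPM, varied widely between rats and were not DEGs. Of 25 sodium, water and pump genes, 1 was higher and 5 lower, with the water channels Aqp4 falling from 20.8 ± 4.48 to 7.36 ± 2.35 TPM and Aqp9 from 9.15 ± 2.79 to 3.49 ± 0.356 TPM, while the sodium channel subunit Scnn1a was at 12.7 ± 0.801 and 15.8 ± 2.19 TPM. The letters of the full steroid receptor palindrome were in none of the 9961 promoter windows, so this search cannot tell DEGs from other genes. Partial matches and sites outside the windows were not searched.

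Metabolic genes also changed singly. Of 25 cytochromes P450, 4 were higher and 8 lower. Cyp24a1, which degrades active vitamin D, lay at 0.14, 0.02, 0.02, 0.13 and 0.11 TPM in the controls and at 3.05, 9.38, 6.11, 0.77 and 2.56 TPM in the UVB rats, and the sterol hydroxylase Cyp27a1 fell from 48.3 ± 4.67 to 23.3 ± 2.53 TPM. Of 29 retinoid genes, 6 were higher and 3 lower, with chemerin (Rarres2) rising from 42.5 ± 4.37 to 96.6 ± 14.2 TPM and the retinoic acid binding protein Crabp1 falling from 121 ± 21.8 to 52.1 ± 5.95 TPM. Of 25 genes of glycolysis and hypoxia, 6 were higher and 1 lower, among them enolase (Eno1), from 396, 381, 366, 398 and 368 TPM to 595, 507, 601, 659.8 and 662 TPM, and the lactate transporter Slc16a1, from 39.6 ± 2.5 to 66.8 ± 2.77 TPM. Of 34 genes of amino acid transport and synthesis, 9 were higher and 5 lower, with the serine synthesis enzyme Psat1 rising from 36.1 ± 9.91 to 79.7 ± 11.5 TPM and the neutral amino acid transporter Slc43a2 falling from 39.1 ± 4.68 to 18.8 ± 1.03 TPM. In the circadian clock, 1 of 18 genes was higher and 4 lower. The clock repressor Nr1d1 lay at 84.4, 97.4, 63.4, 70.1 and 65.6 TPM in the controls and 23.4, 21.2, 22.9, 40.7 and 25.2 TPM after UVB (log2 fold change -1.50 ± 0.17), Dbp fell from 84.7 ± 13.1 to 45 ± 6.2 TPM, and Cry1 rose from 10.3 ± 1.14 to 17.1 ± 1.68 TPM. The hour of dissection is not given in the sources used here.

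The remaining lists are given by their counts, to be read against the 11% of all genes tested. Of 24 genes of lipid droplets and lipolysis, 3 were higher and 3 lower (25%), and of 10 adipocyte genes 1 was higher and 4 lower (50%), a count of 5 that was 3 without Control P1.hMR rat 1, Control P1.hMR rat 3 or UVB P1.hMR rat 4. Retn, which encodes the adipokine resistin, rose from 2.2 ± 1.58 to 14 ± 6.44 TPM. Of 36 lysosomal genes 2 were higher and 2 lower, of 34 potassium, chloride and TRP channel genes 2 were higher and 5 lower (20.6%), and of 21 desmosome and adherens junction genes 1 was higher and 1 lower. Of 21 genes of the unfolded protein response 1 was higher and none lower, and of 5 lacrimal acinar genes 1 was lower. The 13 mitochondrially encoded genes were not analysed here.

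The question whether the transgenic gland responded otherwise than the wild-type gland was tested as the interaction of genotype and UVB over all 17 rats. No gene reached an adjusted p under 0.05 in limma, the smallest being 0.309, and 900 genes (6.97%) had an unadjusted p under 0.05, 200 of them among the 1415 DEGs. The DEGs were selected for their change in P1.hMR rats, which also enters the interaction, so the count of 200 follows in part from the selection. Without UVB WT rat 3, 10 genes passed the adjusted p, and without Control WT rat 4, 1 gene. The 10 included Slc36a2 and Cers3 (adjusted p = 0.00404 and 0.00397 from limma). The sign of the change was the same in WT rats for 656 of the 665 higher and 735 of the 750 lower DEGs, with WT medians of 0.61 and -0.57, although a gene was selected here for its change in P1.hMR rats alone. In simulated data, the same model found 93% of the genes given a difference of 1 on the log2 scale between the responses. It found 99% of those given a difference of 2, with 14 false calls among 12921 genes, and smaller differences were not simulated. All simulated rats had the spread of the P1.hMR rats, and only genes with a mean log2(TPM + 1) above 2 were changed. The spread of the WT rats did not enter, so these shares may overstate what the test could find in the real rats. The lack of calls does not show that the responses were alike. The difference between the responses had the smallest unadjusted p among named DEGs for Cldn17, which rose by 2.22 in P1.hMR rats and was at 1.02 in WT rats on the log2 scale (difference 1.2 ± 0.30, adjusted p = 0.7 from limma). Cd8a followed with 1.84 and 1.07 (difference 0.77 ± 0.19, adjusted p = 0.7 from limma), and Lbhd2 with 2.41 and 1.49 (difference 0.92 ± 0.27, adjusted p = 0.7 from limma). The gene with the largest rise, Sprr1b, was at 4.17 and 3.66 (difference 0.51 ± 0.39, adjusted p = 0.836 from limma), and the gene with the largest fall, Krt77, at -3.25 and -4.01 (difference 0.77 ± 0.48, adjusted p = 0.789 from limma). None of these passed, and all were named for their change in P1.hMR rats, which also enters the difference. Of the 211 named DEGs, 209 had the same sign in WT rats.

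**Figure D5:**
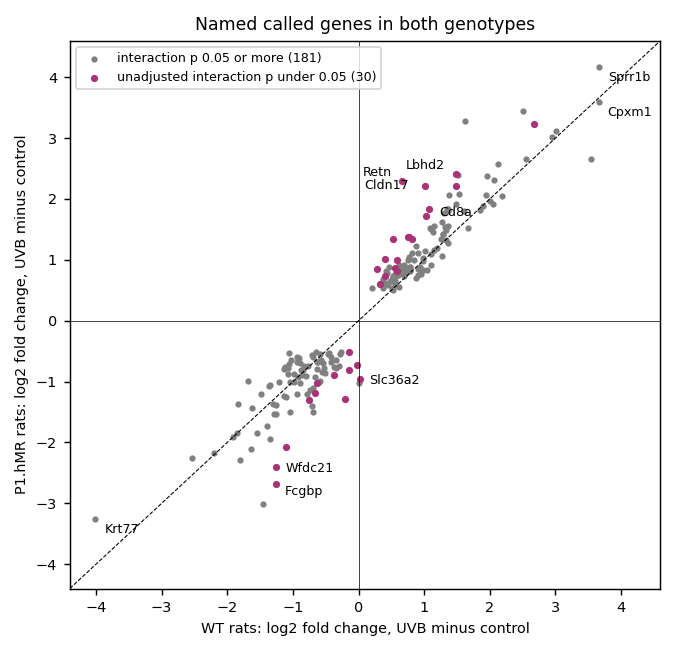
Log2 fold change (UVB minus control) in WT rats against that in P1.hMR rats for the 211 named DEGs of P1.hMR rats, each point a gene, with the 30 genes whose unadjusted interaction p was under 0.05 in a second colour. The dashed line marks equal change, most points share their sign in both genotypes, single genes such as Slc36a2 (-0.95 in P1.hMR, 0.03 in WT) and Retn (2.29 and 0.67) lie away from the line, and no gene passed the adjusted interaction test.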

How the data were processed

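The authors deposited TPM for 17251 genes in the MG of 17 rats, 1 column per rat with decimal commas. The paper's methods give FastQC, STAR (rn7) and RSEM, whereas the submitters' processing notes name Trimmomatic, DRAGEN and Picard, so the aligner is not settled here. Listed genes summed to 804378 to 831800 TPM per P1.hMR rat, and without read counts the depth is unknown and no count test was possible.

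Groups came from the labels. Values were analysed as log2(TPM + 1) with limma 3.58.1 (R 4.3.3, variance trend, two-sided, Benjamini-Hochberg), UVB against control over 10 rats and the interaction over 17. On simulated data for UVB against control in P1.hMR rats (12921 genes), 98% of changes of 1 and 100% of changes of 2 on the log2 scale were recovered, with 2 false calls. The changes were given only to genes with a mean log2(TPM + 1) above 2. Python 3.11.15, pandas 2.3.3, numpy 2.4.6, scipy 1.17.1 and matplotlib 3.10.9 were used for summaries. Promoters are RefSeq's (GRCr8), matched by symbol for 9961 of the genes tested, and 12137 were placed on chromosomes.

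The comparison, the 63 gene lists (1337 symbols tested) and the rule for named genes were chosen with earlier results of these data known. The rule named the transgene and the corticosteroid receptors, the 12 largest rises and falls without overlap (leaving out symbols that are only clone or locus identifiers), the 6 largest gains and losses of mean TPM, and up to 4 DEGs of each list by absolute log2 fold change, or its largest change where it had none. List members outside the rule, such as Pparg, Fasn, Far2, Elovl4, Plin2, Krt5, Krt14, Ivl, Lor, Lce1f, Tgm1, Tgm3, Klk5, Klk13, Mki67, Cdkn1a, Cxcl1, Cd68, Csf1r, Ptprc, Irf7, Col3a1, Vegfa, Tgfb1, Hsd11b1, Sgk1, Fkbp5, Tsc22d3 and Scnn1a, were named after their values were seen. A few of the genes so chosen are not reported here. Alternatives covered the pseudocount, filters, scaling, weights, trend, the fit of 17 rats, the fold change threshold, a replicate block, leaving out hair and muscle genes, and each rat left out in turn.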

Additional observations from a re-analysis of the deposited data

Results flagged for a closer look

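Each gene named by the rule and each summed gene list was examined for a rat far from the other 4 of its group, and 22 of 560 groups of values (3.93%) held one, where chance gives about 1 in 20. UVB P1.hMR rat 4 was the rat apart in 10 of them. It lay above the other UVB rats for Pnoc (12.54 TPM, others up to 4.53), Slc38a4 (23.82, others up to 15.48), Mad2l1 (12.95, others up to 9.29), Nr1d1 (40.67, others up to 25.25) and Crabp1 (62.59, others up to 50.66). It was also highest for the mast cell genes Tpsab1 (8.34 TPM, others up to 4.99) and Cpa3 (10.26, others up to 6.5). For summed lists, this rat held 83.22 TPM over the mast cell genes (others up to 58.44), 228.5 TPM over the goblet cell and mucin genes (others up to 168.9) and 2796 TPM over the unfolded protein response (others up to 2522).

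Among the Control P1.hMR rats, rat 4 stood above the others for Incenp (13.51 TPM, others up to 11.06), Hbegf (10.11, others up to 7.47), Ctsz (45.93, others up to 36.47) and Psat1 (53.83, others up to 32.77). Rat 2 was highest for Stfa2l1 (1.24 TPM, the others at 0), Slc7a11 (3 TPM, others up to 1.98) and Tpsb2 (2.13, others up to 1.43). Rat 3 was lowest for Krt82 (8.99 TPM, others at least 15.71) and highest for Cldn11 (4.45, others up to 2.95) and for the summed neutrophil list (1935 TPM, others up to 1659). Rat 1 was highest for Sdf2l1 (21.94 TPM, others up to 16.3). UVB P1.hMR rat 1 was highest for Ptprh (1.73 TPM, others up to 0.08).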

How the results depend on the processing

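The fold change threshold and the filter on low values moved the number of genes called most. Of the genes called, UVB against control in P1.hMR rats, there were 1415 as reported, 5207 without a fold change threshold (2469 genes called higher and 2738 genes called lower), 302 at an absolute log2 fold change of 1 or more (156 and 146) and 897 with a mean of 5 TPM or more (426 and 471), a filter that left 9945 genes tested and whose 897 calls were all among the 1415. A pseudocount of 0.1 gave 1776 genes (806 and 970), and the fit of 17 rats, no trend, no filter, sample weights, quantile normalization, median-of-ratios scaling and rescaling without hair and muscle genes gave 1397 to 1482. With each rat left out in turn the calls ran from 1311 to 1457 (620 to 727 higher, 684 to 797 lower). For the UVB response of P1.hMR against that of WT rats, leaving out each of the 17 rats gave 0 to 10 genes, the 10 without UVB WT rat 3 and 1, Lin37, without Control WT rat 4.

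Replicate numbers did not pair the rats, since deviations of same-numbered rats correlated at -0.024, -0.012, -0.128, 0.041 and -0.003, and not every rat correlated best with its own number. With the replicate number as a block, 1389 genes were called, 1382 of them shared.

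Of the 211 named genes called, 191 kept the call under every alternative that tested them, and no named value reversed. List counts moved by over 1.5 times in 23 cases and by less in 734, 13 of the 23 with the filter at a mean of 5 TPM, where chemokines went from 16 to 6, mast cell genes from 5 to 0, DNA replication from 12 to 7 and hair matrix from 8 to 3. List members under that mean were left out by this filter and could not be called. What moved the counts in the other settings was not tested. Depth is unknown, so low genes such as the leukocyte markers carry a counting error that could not be computed.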

Other observations

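Several further genes were picked after their values were seen. Ednrb, the endothelin receptor of melanocytes and endothelium, rose evenly, with 4.3, 4.29, 3.38, 3.83 and 5.59 TPM across the 5 controls and 20.7, 20.4, 22.3, 23.3 and 21.9 TPM in the UVB P1.hMR rats (log2 fold change 2.12 ± 0.10, adjusted p = 3.78e-07 from limma). Krt12, the keratin of the corneal epithelium, rose from 4.84 ± 1.63 to 17.9 ± 3.65 TPM without overlap (log2 fold change 1.72 ± 0.19, adjusted p = 5.69e-05 from limma).

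Some genes lay at separate levels within a group. Aldh1a7, an aldehyde dehydrogenase, lay between 46.6 and 83.8 TPM in the controls, while UVB P1.hMR rats 1 and 2 held 74.1 and 81.9 TPM and rats 3, 4 and 5 held 1.49, 1.75 and 1.54 TPM. Among the UVB WT rats, Aldh1a7 was at 51.3, 2.62 and 77.5 TPM, and the 4 Control WT rats lay between 48.6 and 56.4 TPM. Aldh1a7 was not called (log2 fold change -2.54 ± 1.02, adjusted p = 0.0668 from limma). RGD1565462 was at 10.4 and 10.6 TPM in Control P1.hMR rats 1 and 2 and at 0.27, 0.54 and 0.4 TPM in rats 3, 4 and 5, and it rose after UVB to between 15.3 and 72.3 TPM in all 5 rats (log2 fold change 3.94 ± 0.71, adjusted p = 0.00124 from limma). Gp2, a glycoprotein of secretory cells, was at 124 and 104 TPM in Control P1.hMR rats 4 and 5 and at 21.6 to 32.7 TPM in the other controls, and the UVB rats lay between 3.74 and 40.1 TPM with overlap (log2 fold change -2.12 ± 0.72, adjusted p = 0.0351 from limma).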
